A study of Homo sapiens with 6 samples.

Results

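The transcript levels of 10 integrin subunit genes were examined in the core and the margin of a breast cancer xenograft. The genes were ITGA2, ITGA3, ITGA5, ITGA6, ITGAV, ITGB1, ITGB3, ITGB4, ITGB5 and ITGB8. They were taken by symbol from a list that was made with earlier results of these data known, out of 26 integrin subunit genes and 60930 features in the expression matrix. Each of the 10, and 5 of the 16 other subunits, passed the filter on low values, by which a gene had to reach 1 TPM in 3 or more samples and which kept 13861 genes. TPM (a transcript share scaled to 1000000 per sample) is a measure of abundance per transcript length, so levels of different genes can be set side by side within a sample.

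The tumors were grown from MDA-MB-231, a triple-negative human breast cancer line labelled as an epithelial cell of WT genotype. The cells were placed orthotopically, with Matrigel, in the mammary fat pad of female NSG mice, which lack T, B and NK cells and were 6 to 8 weeks old per the methods. Tissue of the tumor core (TC, n = 3) and of the tumor margin (TM, n = 3) was sequenced, with no other agent or allele in either group. The study states 3 mice per group, and the labels do not say whether a TC and a TM sample of the same number came from one tumor. All tumors were of 1 cell line, and the values are levels in bulk tissue, in which fewer cells of a type and less RNA per cell cannot be told apart.

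Integrins are heterodimers of an alpha and a beta chain that span the plasma membrane and hold a cell to its matrix. The pairing sets the ligand: alpha3, alpha6 and the alpha6beta4 dimer bind laminins, alpha2 with beta1 binds collagens, and alpha5beta1 and the alphav dimers read the RGD motif of fibronectin, vitronectin and latent TGF-beta. Talin and kindlin activate the receptors from within, and FAK (PTK2), Src and paxillin carry the signal of the engaged receptor at focal adhesions.

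The samples carried the marks of the cell line. VIM stood at 3797 to 5283 TPM, KRT8 at 356 to 447 TPM and KRT18 at 387 to 575 TPM in the 6 samples. EPCAM (3.66 to 6.02 TPM) and CDH1 (at most 0.36 TPM), epithelial markers like the keratins, were low. Of the receptor genes on the marker list, ESR1 and PGR reached 0.13 and 0.22 TPM. ERBB2 was at 22.3, 23.9 and 24.1 TPM in TC and 40.7, 30.8 and 36.4 TPM in TM. Its groups did not overlap, with a log2 difference of -0.59 (adjusted p = 0.128 by limma). The samples also differed as a whole. Mitochondrially encoded transcripts took 6.08% to 8.82% of TPM in TC and 9.23% to 11.1% in TM, and 21063 to 21942 annotated genes were above 0 in TC against 22678 to 23216 in TM, so that both measures separated the groups, and their part in the comparisons was not tested. Markers of skeletal muscle and fibroblasts were unequal between samples. The macrophage (95.4 to 109 TPM), endothelium (29.1 to 45.1 TPM) and adipocyte (16.4 to 30.2 TPM) marker sums lay closer together. Erythroid markers summed to 0.29 to 6.93 TPM. The 14 skeletal muscle markers present in the matrix summed to 273 TPM in TM replicate 1 and 683 TPM in TM replicate 2, against 6.40 to 12.4 TPM in the other 4 samples. The 12 fibroblast markers summed to 536 and 1082 TPM in those same TM samples and to 102 to 264 TPM elsewhere. COL1A1 alone held 335 and 698 TPM of these 2 TM sums. The markers did not all follow, as LUM was at 0 in both samples and COL6A3 was highest in TM replicate 3 (3.76 TPM). Of 8 platelet markers, 4 (PPBP, PF4, GP9 and TREML1) were listed at 0 in every sample. The other 4 were detected at low levels, the highest being GP1BA. It was at 0.52, 0.17 and 0.13 TPM in TC and 0.42, 1.37 and 1.02 TPM in TM. The host was mouse and the values are for human genes, so a level of 0 does not show that host cells were absent. TM replicate 3 stood apart in its column of values, which summed to 994381 rather than 1000000. That column held 4 assembled loci above 0 against 203 to 214 in the others, and the labels give no reason.

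The laminin receptor chain ITGA3 and its partner ITGB1 dominated the integrin transcripts in TC and TM alike. Over the 6 samples, ITGA3 averaged 360 ± 43.9 TPM (SD) and ITGB1 280 ± 56.1 TPM, at ranks 349 and 470 among the 13861 genes. These neighbours in the order could not be parted by their spread, since ITGA3 exceeded ITGB1 in 4 of 6 samples. ITGB5 followed at 108 ± 12.3 TPM, below ITGB1 in every sample by a ratio of means of 2.59 and with no overlap of the ranges. ITGA5 (88.5 ± 11.3 TPM) lay below ITGB5 in 6 of 6 samples, although the ranges overlapped. A second gap with no overlap separated ITGA5 from ITGA6 at 37.2 ± 10.1 TPM. ITGA2 (18.7 ± 8.53 TPM), ITGB4 (18.03 ± 6.04 TPM) and ITGAV (14.6 ± 6.44 TPM) formed a middle group whose order changed from sample to sample. ITGB3 came next at 5.01 ± 1.11 TPM, and ITGB8 was the scarcest at 1.58 ± 1.04 TPM, below ITGB3 in all 6 samples.

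**Figure D1:**
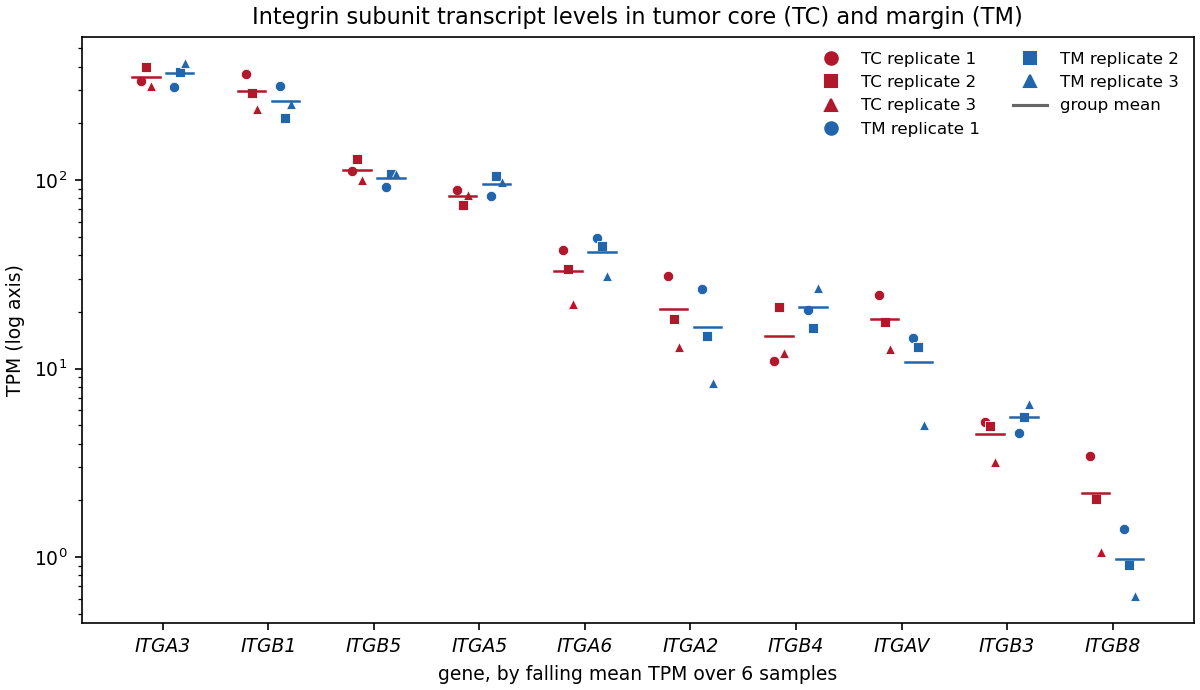
TPM (log axis) of the 10 integrin subunit genes in each sample, red for TC and blue for TM, with symbols for the replicates and bars for group means (n = 3 each). ITGA3 and ITGB1 lie at the top near 300 TPM, ITGB8 lies near 1 TPM, and for each gene at least 1 TC sample falls within the range of the TM samples or the reverse.

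To examine whether TC and TM differed, each gene was compared by limma on log2(TPM + 1), and differences below are TC minus TM on that scale. No integrin subunit separated TC from TM. At an adjusted p under 0.05 limma called 0 of the 10 genes, against 0.137% of all tested genes (19 genes, of which 18 were lower in TC). At an unadjusted p under 0.05 the count was also 0 of 10, against 16.2% of all tested genes. The TC and TM samples did not fall apart without overlap for any of the 10, which they did for 22.2% of all tested genes. Of the 10 genes, 5 had a higher and 5 a lower mean in TC. Their median difference was 0.04 on the log2 scale, whereas the median of all tested genes was -0.14 and 33.0% of those had a higher mean in TC. Rescaling the samples by median-of-ratios factors moved the median of all tested genes to 0.02 and that of the integrin subunits to 0.22, whereas quantile normalization gave 0.01 and 0.03, so the distance between the medians depended on the scaling.

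**Figure D2:**
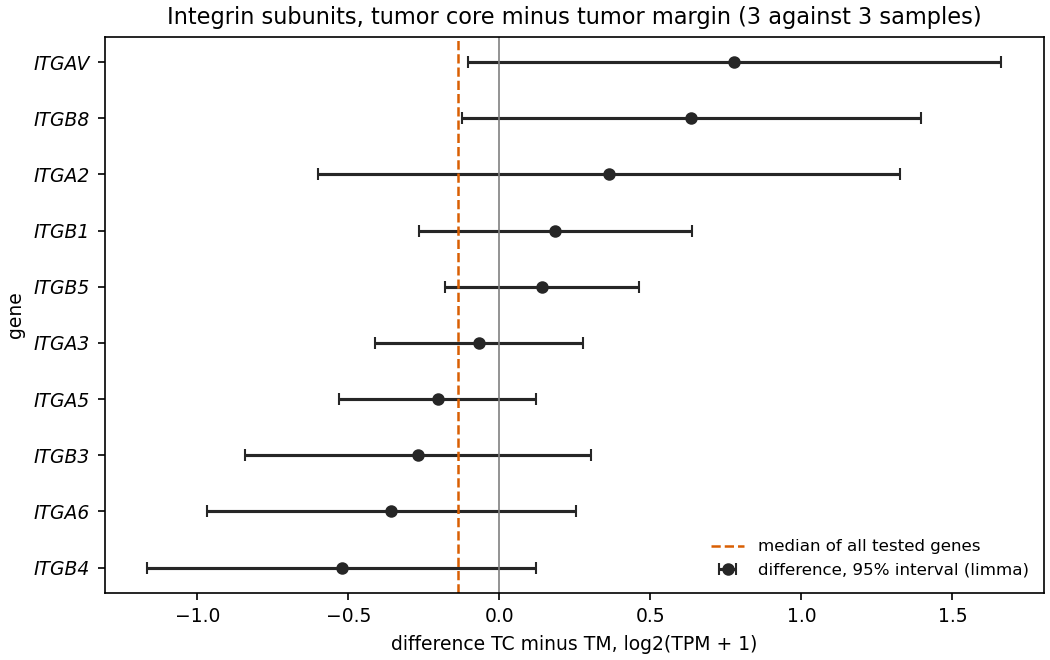
Difference TC minus TM of each integrin subunit in log2(TPM + 1) with its 95% interval from limma (3 against 3 samples), the grey line at 0 and the dashed line at the median of all 13861 tested genes. Every interval includes 0, from ITGAV at 0.78 to ITGB4 at -0.52.

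The laminin receptor chains were examined first. ITGA3 (ENSG00000005884, chr17:50055968-50090481, plus strand) pairs with beta1 and binds laminins of epithelial basement membranes. Its level was 338, 399 and 316 TPM in TC replicates 1 to 3 and 313, 376 and 417 TPM in TM. The groups overlapped almost fully, with a log2 difference of -0.07 (95% interval -0.41 to 0.28, adjusted p = 0.875 by limma), and the sign was positive after median-of-ratios rescaling (0.11). ITGA3 was also among the steadier transcripts: 13.9% of tested genes had an SD over the samples as low or lower on the log2 scale. The same share was 10.5% for ITGB5 and 15.2% for ITGA5, so this was not particular to ITGA3. ITGA6 (ENSG00000091409, chr2:172427354-172506282, plus strand), the laminin chain that pairs with beta1 or beta4, stood at 42.7, 33.9 and 21.9 TPM in TC and 49.3, 44.6 and 31.1 TPM in TM. TM replicate 3 lay below 2 of the TC samples, and the log2 difference of -0.36 (95% interval -0.97 to 0.25, adjusted p = 0.582 by limma) was within the spread. It was -0.10 without TC replicate 3, -0.23 without TM replicate 1, -0.57 without TC replicate 1 and -0.55 without TM replicate 3. ITGB4 (ENSG00000132470, chr17:75721328-75757818, plus strand) is the hemidesmosome chain, which pairs with alpha6 and links it to keratin filaments through plectin. Its level was 11.0, 21.3 and 12.2 TPM in TC and 20.4, 16.4 and 26.9 TPM in TM. TC replicate 2 exceeded 2 of the TM samples, so the groups overlapped, and the log2 difference was -0.52 (95% interval -1.17 to 0.12, adjusted p = 0.422 by limma). Without TC replicate 2 it was -0.80, at an adjusted p of 0.340 by limma, and without TM replicate 3 it was -0.34.

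ITGB1 and the collagen receptor chain ITGA2 were next. ITGB1 (ENSG00000150093, chr10:32900319-33005792, minus strand), the shared partner of alpha2, alpha3, alpha5, alpha6 and alphav, was found at 368, 288 and 240 TPM in TC and 317, 215 and 254 TPM in TM. The samples of both groups were interleaved, with a log2 difference of 0.19 (95% interval -0.27 to 0.64, adjusted p = 0.710 by limma). It was 0.024 without TC replicate 1, 0.053 without TM replicate 2 and 0.33 without TC replicate 3 or TM replicate 1. ITGA2 (ENSG00000164171, chr5:52989326-53094779, plus strand) had 31.0, 18.3 and 13.1 TPM in TC and 26.4, 14.9 and 8.38 TPM in TM. Replicates of each group spanned more than the distance between the group means, and the log2 difference was 0.36 (95% interval -0.60 to 1.33, adjusted p = 0.738 by limma). Single samples decided that difference, which was -0.02 without TM replicate 3, 0.04 without TC replicate 1, 0.64 without TC replicate 3 and 0.75 without TM replicate 1.

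The chains that read RGD ligands held the largest positive differences. ITGAV (ENSG00000138448, chr2:186590065-186680901, plus strand), the shared partner of beta3, beta5 and beta8, stood at 24.6, 17.7 and 12.8 TPM in TC and 14.5, 12.95 and 5.02 TPM in TM. TC replicates 1 and 2 were above all TM samples, whereas TC replicate 3 was below 2 of them. The log2 difference of 0.78 (SE 0.38, 95% interval -0.10 to 1.66) had an unadjusted p of 0.0765 and an adjusted p of 0.381 by limma. Leaving out TM replicate 3 reduced it to 0.35, and leaving out TM replicate 1 gave 1.03. ITGB8 (ENSG00000105855, chr7:20330702-20415754, plus strand), whose dimer with alphav releases active TGF-beta from its latent complex, had 3.45, 2.04 and 1.07 TPM in TC and 1.41, 0.91 and 0.62 TPM in TM. Again TC replicate 3 alone lay within the TM range. The log2 difference was 0.64 (SE 0.33, 95% interval -0.12 to 1.40, adjusted p = 0.406 by limma), it was 0.36 without TC replicate 1, and at these low levels the added pseudocount of 1 TPM understates a change. The antisense gene AC004130.1, found at 0.16 to 1.81 TPM, shares 98 exon bases with ITGB8, whose longest coding transcript has 8751 bases. Reads in those shared bases may not be parted from it. ITGA5, ITGA6, ITGAV and ITGB1 also share exon bases with antisense genes, from 42 at ITGB1 to 203 at ITGAV.

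Both genes depended on the scaling. With median-of-ratios rescaling, the difference of ITGAV was 0.95 (unadjusted p = 0.0222, adjusted p = 0.298 by limma) and that of ITGB8 was 0.73 (unadjusted p = 0.0399, adjusted p = 0.354 by limma). Quantile normalization gave 0.98 for ITGAV and 0.76 for ITGB8, again with unadjusted p below 0.05 and adjusted p of 0.286 and 0.307 by limma. Neither reached the adjusted threshold in any alternative.

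The remaining RGD chains differed less. ITGA5 (ENSG00000161638, chr12:54395261-54419460, minus strand), the fibronectin receptor chain, stood at 88.9, 74.1 and 83.2 TPM in TC and 82.1, 105 and 97.2 TPM in TM, with 2 TC samples above the lowest TM sample. Its log2 difference was -0.20 (95% interval -0.53 to 0.12, adjusted p = 0.552 by limma), and it was -0.13 without TC replicate 2 and -0.12 without TM replicate 2. ITGB5 (ENSG00000082781, chr3:124761948-124901418, minus strand), the vitronectin receptor chain, was at 112, 129 and 100.4 TPM in TC and 92.2, 108 and 108 TPM in TM. The groups overlapped and the log2 difference was 0.14 (95% interval -0.18 to 0.46, adjusted p = 0.683 by limma), with 0.05 when TC replicate 2 was left out, 0.07 when TM replicate 1 was and 0.23 when TC replicate 3 was. ITGB3 (ENSG00000259207, chr17:47253846-47311816, plus strand), the beta chain of the alphavbeta3 receptor that platelets and osteoclasts also use, had 5.24, 4.98 and 3.20 TPM in TC and 4.55, 5.56 and 6.52 TPM in TM. TC replicates 1 and 2 lay above the lowest TM sample, and the log2 difference was -0.27 (95% interval -0.84 to 0.30, adjusted p = 0.661 by limma), with -0.09 when TC replicate 3 was left out and -0.16 when TM replicate 3 was. ITGB3 shares 2266 exon bases on the same strand with AC068234.1, which was listed at 0 to 0.11 TPM.

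Since an alpha and a beta chain must meet, the makeup of the pool was described per sample, without a test. The 5 alpha genes summed to 525, 543 and 447 TPM in TC and 485, 553 and 558 TPM in TM. The 5 beta genes summed to 500, 446 and 357 TPM in TC and 436, 346 and 396 TPM in TM. Alpha transcripts thus exceeded beta transcripts in every sample, by ratios of 1.05 to 1.60. Of the beta sum, ITGB1 made up 68.5 ± 4.58% in TC and 66.3 ± 5.67% in TM (SD, n = 3). The laminin chains ITGA3 and ITGA6 together made up 75.9 ± 3.63% of the alpha sum in TC and 76.9 ± 2.90% in TM. The RGD chains ITGA5 and ITGAV held 16.9% to 21.6% of it in TC samples and 18.3% to 21.4% in TM samples. The collagen chain ITGA2 held 4.07 ± 1.61% in TC and 3.21 ± 2.02% in TM. Each of these shares overlapped between the groups.

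Of the 16 such sums, shares and ratios, 1 did not overlap between the groups, against 22.2% of all tested genes taken singly. The 16 measures are built from the same genes, and the 1 is given as a description only. In TC the ratio of ITGB3 to ITGAV was 0.213, 0.281 and 0.251, and in TM it was 0.313, 0.429 and 1.30. All TC samples thus lay below all TM samples, and TM replicate 3 stood far above the rest. The ratio of ITGB5 to ITGAV gave 4.56, 7.27 and 7.86 in TC samples and 6.34, 8.35 and 21.5 in TM samples, which overlapped, and ITGB8 relative to ITGAV was 0.0838 to 0.140 in TC and 0.0703 to 0.124 in TM. A ratio within a sample does not depend on the scaling of that sample. The ITGB3 and ITGAV transcripts differ in GC content (52.3% and 38.3%), a property with which levels moved across the samples, and its part in the ratio was not tested. ITGB4 relative to ITGA6, the 2 chains of the hemidesmosome receptor, gave 0.257, 0.628 and 0.555 in TC samples and 0.414, 0.368 and 0.867 in TM samples, with no separation.

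Several subunits shared the way in which they differed among replicates of one group. ITGA2, ITGA6, ITGAV, ITGB1 and ITGB8 were each highest in TC replicate 1, intermediate in TC replicate 2 and lowest in TC replicate 3. The same held for TM replicates 1, 2 and 3 in 4 of these 5 genes, with ITGB1 as the exception. Of the other 5 subunits, ITGB3 had that order in TC as well and none had it in TM. In TC replicate 1, ITGAV was 0.84, ITGA2 0.82 and ITGB8 0.87 above its own mean over the samples on the log2 scale, and in TM replicate 3, ITGAV was at -1.25 and ITGA2 at -0.95. These deviations exceed the difference between TC and TM for each of the 3 genes, save ITGB8 in TM replicate 3 (-0.59 against 0.64).

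The 5 genes ITGA2, ITGA6, ITGAV, ITGB1 and ITGB8 have the transcripts poorest in G and C of the 10. Their longest coding transcripts in GENCODE v29 held 37.8% to 42.9% GC, below the median of 48.8% over tested genes, whereas ITGA3, ITGA5, ITGB3, ITGB4 and ITGB5 held 52.3% to 63.7%. This division was made after the values were seen. Across all tested genes the same sample order went with GC content. Tested genes were split by GC content into 4 classes of 3443. In the GC-poorest class, 56.7% were highest in replicate 1 and lowest in replicate 3 in TC, 41.9% were so in TM and 27.0% were so in both. In the GC-richest class the shares were 18.4%, 18.8% and 2.06%, and over all tested genes they were 35.8%, 27.4% and 11.8%. The median deviation of the GC-poorest class from the gene means was 0.27, -0.05 and -0.22 in TC replicates 1 to 3 and 0.21, -0.04 and -0.16 in TM replicates 1 to 3, on the log2 scale. The part of this library-wide pattern in the levels of the 5 integrin genes was not tested.

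**Figure D3:**
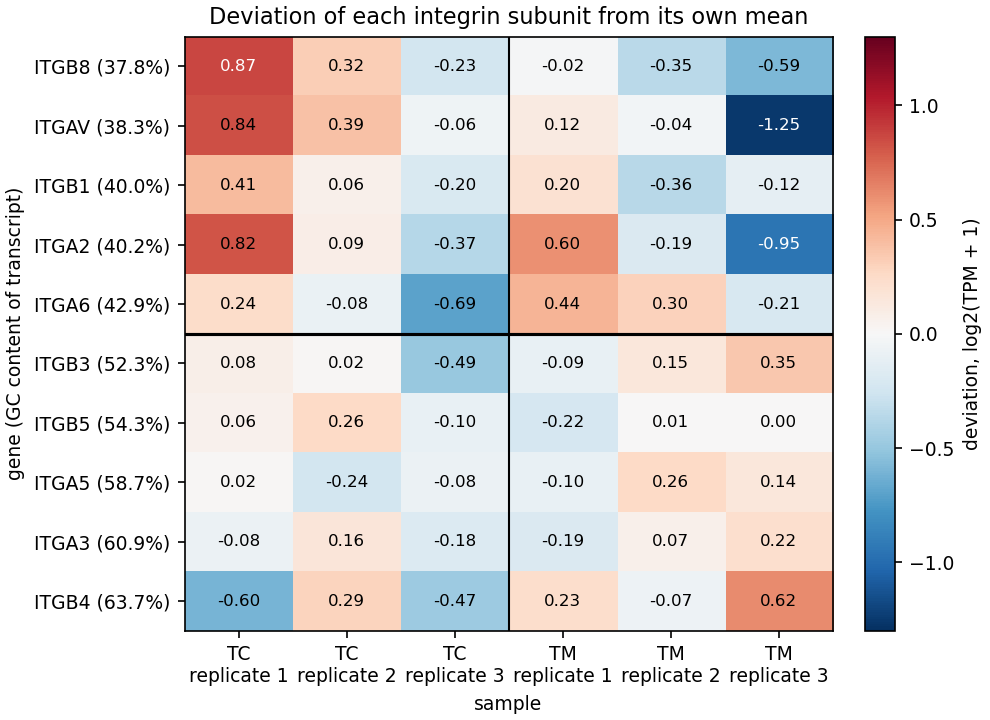
Deviation of each integrin subunit from its own mean over the 6 samples, in log2(TPM + 1), red above and blue below, with genes ordered by the GC content of the transcript and the line parting the 5 GC-poor from the 5 GC-rich genes. The GC-poor genes are all above their mean in TC replicate 1 (0.24 to 0.87) and all below it in TC replicate 3 and TM replicate 3.

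As a description over 6 samples that share libraries and scaling, Pearson's r of log2(TPM + 1) was computed for the 45 pairs of the 10 genes. The 10 pairs among the GC-poor genes had a median r of 0.70 (0.32 to 0.89), the 10 pairs among the GC-rich genes one of 0.44 (-0.20 to 0.76), and the 25 mixed pairs one of -0.21 (-0.67 to 0.49). Without TM replicate 3 these medians were 0.77, 0.34 and 0.06. After a smooth trend on GC content and transcript length was removed from each sample, the medians were 0.43, 0.34 and 0.06. Not all pairs moved alike: ITGA2 with ITGAV had r = 0.89 before and 0.84 after, ITGAV with ITGB8 had 0.88 and 0.79, and ITGB1 with ITGB8 had 0.84 and 0.80, while ITGA6 with ITGB1 turned from 0.41 to -0.53. After the removal, the TC minus TM difference was 0.85 for ITGAV, 0.70 for ITGB8 and 0.45 for ITGB5, each with an unadjusted p below 0.05, and the adjusted p were 0.313, 0.290 and 0.275 by limma. The signs of ITGA3 (0.29), ITGA5 (0.14) and ITGB3 (0.02) were then positive.

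ITGAV had the smallest p of the 10, and the tested genes most like it over the 6 samples were TMED5 (r = 0.999), UFL1 (r = 0.994) and NUCB2 (r = 0.993). TMED5, a cargo receptor of the early secretory pathway, was at 46.6, 38.0 and 31.7 TPM in TC and 35.4, 32.1 and 18.6 TPM in TM. These transcripts are GC-poor as well (37.4%, 35.7% and 36.9%), and r exceeded 0.9 for 234 of 13860 genes (1.69%).

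Promoter windows of 4 of the 5 GC-poor genes are shown, so that their sequence can be set beside their levels. They were chosen after their values were seen. RefSeq windows on GRCh38.p14, running from 250 bases before to 50 bases after a transcript start, were found for 7 of the 10 genes (12 windows, none for ITGA3, ITGB3 and ITGB4). The 4 given here, 5′ to 3′ on the strand of the gene, are ITGAV (chr2:186589806-186590105, plus), ITGB8 (chr7:20330650-20330949, plus), ITGA2 (chr5:52989102-52989401, plus) and ITGB1 (chr10:32958181-32958480, minus). Capitals mark matches to GGGCGG, the Sp1 box, or to GGAATG, a TEAD motif, on either strand, and no marked matches overlap.
ITGAV: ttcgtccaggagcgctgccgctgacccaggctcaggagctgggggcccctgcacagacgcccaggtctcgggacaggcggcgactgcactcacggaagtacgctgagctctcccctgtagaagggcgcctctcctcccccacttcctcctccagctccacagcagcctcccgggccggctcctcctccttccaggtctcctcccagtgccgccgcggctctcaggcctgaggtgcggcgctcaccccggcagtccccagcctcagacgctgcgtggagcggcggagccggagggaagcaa
ITGB8: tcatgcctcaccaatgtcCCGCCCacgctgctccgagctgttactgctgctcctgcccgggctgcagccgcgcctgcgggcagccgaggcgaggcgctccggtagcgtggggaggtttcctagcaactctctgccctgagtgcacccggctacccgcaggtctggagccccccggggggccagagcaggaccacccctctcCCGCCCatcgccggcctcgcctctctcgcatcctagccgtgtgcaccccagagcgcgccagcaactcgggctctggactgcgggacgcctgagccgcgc
ITGA2: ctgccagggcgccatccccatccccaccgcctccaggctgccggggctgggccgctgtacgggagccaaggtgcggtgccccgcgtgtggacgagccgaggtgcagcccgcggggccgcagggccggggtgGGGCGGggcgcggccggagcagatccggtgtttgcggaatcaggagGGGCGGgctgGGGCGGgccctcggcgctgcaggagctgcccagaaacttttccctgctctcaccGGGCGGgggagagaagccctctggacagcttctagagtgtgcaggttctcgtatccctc
ITGB1: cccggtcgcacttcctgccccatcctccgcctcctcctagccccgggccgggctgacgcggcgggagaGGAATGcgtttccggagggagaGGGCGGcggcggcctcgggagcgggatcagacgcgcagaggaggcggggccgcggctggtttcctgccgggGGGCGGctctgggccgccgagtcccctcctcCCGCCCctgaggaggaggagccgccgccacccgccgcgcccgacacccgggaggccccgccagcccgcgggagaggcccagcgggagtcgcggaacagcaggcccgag

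The GC content of these windows was 70.7%, 71.7%, 72.7% and 78.3%. The windows at other starts of the same group of genes were not all GC-rich, with 41.3% for the second window of ITGAV, 40.7% for that of ITGB1, and 53% and 72% for the pair of ITGA6. The ITGA2 window held 4 matches to GGGCGG, that of ITGB1 held 3, that of ITGB8 held 2 and that of ITGAV held 0. Over all 35116 RefSeq windows of this length, 45.0% held GGGCGG, and 9 of the 12 integrin windows did. GGAATG was in 14.0% of all windows and 2 of the 12, ACGTG (core of the hypoxia response element) in 21.4% and 2 of the 12, and TGANTCA (AP-1) in 7.71% and 1 of the 12, at ITGA5. Among the 4 windows shown, GGGCGG was missing only from that of ITGAV, and no other motif searched was in all of them. The ITGA6 windows, not shown, held 1 and 3 matches to GGGCGG and 2 and 1 to ACGTG.

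Of the 16 other integrin subunit genes, 5 passed the filter and 0 were called. ITGAE, the chain that binds E-cadherin with beta7, was the most abundant of them at 45.9, 41.7 and 56.0 TPM in TC and 41.6, 35.7 and 33.0 TPM in TM. All TC samples lay just above all TM samples, as held for 3.28% of tested genes, with a log2 difference of 0.37 (SE 0.16, adjusted p = 0.323 by limma). Its partner ITGB7 was at most 0.51 TPM. ITGA10 had a log2 difference of -0.54, ITGAX -0.38, ITGA1 -0.14 and ITGB2 0.003, with adjusted p of 0.593 to 0.997 by limma. Below the filter, the leukocyte chains ITGA4 and ITGAL reached 0.04 and 0.10 TPM, and the platelet chain ITGA2B reached 0.49 TPM. ITGA11, the collagen receptor chain of fibroblasts, was at 0.02, 0.06 and 0.02 TPM in TC and 0.56, 0.65 and 0.15 TPM in TM, alongside the fibroblast marker sums given above, and the part of host cells in it was not tested.

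The genes around the receptors were examined in 9 lists with 122 genes, of which 100 were tested. At the adjusted threshold 0 of the 100 were called, and the smallest adjusted p was 0.103 by limma. At an unadjusted p under 0.05 there were 15 (15.0%, near the 16.2% of all tested genes), of which 14 were lower in TC. Among all tested genes, 14.2% passed that level with a lower mean in TC and 1.93% with a higher one.

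Among the ligands, the 7 laminin chains tested all had a lower mean in TC, with a median of -0.19 on the log2 scale against -0.14 for all tested genes, which was 4 of 7 after median-of-ratios rescaling and 2 of 7 after the GC and length trend was removed. LAMA5, the laminin alpha5 chain, was at 80.1, 71.2 and 65.7 TPM in TC and 88.0, 108 and 212 TPM in TM. The groups did not overlap, but TM replicate 3 stood far above the others, and the log2 difference of -0.80 (SE 0.29) had an adjusted p of 0.231 by limma. LAMC1 and LAMB3 had log2 differences of -0.31 and -0.15 (adjusted p = 0.452 and 0.673 by limma). Of the 19 other ligands tested, 4 had a higher and 15 a lower mean in TC, with a median of -0.18, and 10 were higher after rescaling and 13 after the trend removal. The median of all tested genes was 0.02 after rescaling and 0.01 after the trend removal. Of the ligand list, COL1A1, COL1A2, COL6A3 and FBN1 are also fibroblast markers here. COL6A3 was highest in TM replicate 3 (3.76 TPM), whereas the fibroblast marker sums were highest in TM replicates 1 and 2. TGFB3 was at 0.95, 1.02 and 1.47 TPM in TC and 4.75, 4.20 and 2.07 TPM in TM, thus highest in those same TM samples, and the part of host cells in these values was not tested. The named ligands were TNC (tenascin C) at -0.65 with an adjusted p of 0.130, TGFB3 at -1.08 with 0.138, and EDIL3, an RGD ligand of alphav dimers, at 0.72 with 0.271, all by limma. EDIL3 stood at 15.7, 13.2 and 7.47 TPM in TC and 5.59, 6.31 and 8.29 TPM in TM, with TC replicate 3 below TM replicate 3. FN1, which encodes fibronectin, ranged from 256 to 1155 TPM in TC and from 431 to 1210 TPM in TM.

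The genes that carry the receptor signal were described next. Of 26 focal adhesion kinases and adaptors tested, 3 had a higher and 23 a lower mean in TC, with a median log2 difference of -0.25, and 0 were called. After median-of-ratios rescaling, 10 were higher and 16 lower with a median of -0.07, and after the GC and length trend was removed, 13 were higher and 13 lower. The medians of all tested genes were -0.14 in the main comparison, 0.02 after rescaling and 0.01 after the trend removal. At an unadjusted p under 0.05, 8 of the 26 were lower in TC, against 14.2% of all tested genes, and the same 8 had TC samples wholly below TM samples, against 18.9%. With the rescaling 4 of the 26 were at that level, and after the trend removal 2. The shares of all tested genes above belong to the main comparison and are not given for these settings. PXN (paxillin), the scaffold of the focal adhesion, was at 70.5, 85.2 and 75.4 TPM in TC and 130, 104 and 108 TPM in TM. Every TC sample lay below every TM sample, with a log2 difference of -0.56 (SE 0.14, adjusted p = 0.121 by limma). The kinase SRC stood at 17.8, 17.7 and 13.9 TPM in TC and 23.9, 25.5 and 24.9 TPM in TM, again without overlap (log2 difference -0.57, SE 0.16, adjusted p = 0.148 by limma). BCAR1, an adaptor that Src phosphorylates, had a log2 difference of -0.45 with an adjusted p of 0.159 by limma. The other 5 of the 8 were ARHGEF7, GIT1, PTK2, VCL and LIMS2, with adjusted p of 0.163 to 0.288 by limma, named here after their values were seen.

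The hemidesmosome partners of alpha6beta4 had lower means in TC in 4 of 4 cases, which was 3 of 4 after rescaling and after the trend removal. Of all tested genes, 33.0% had a higher mean in TC in the main comparison. The hemidesmosome median on the log2 scale was -0.38, against -0.23 after rescaling and -0.12 after the trend removal. The medians of all tested genes in these 3 settings were -0.14, 0.02 and 0.01. At an unadjusted p under 0.05, 1 of the 4 was lower in TC, against 14.2% of all tested genes. After the trend removal 0 of the 4 were, a setting for which that share is not given. PLEC (plectin), which ties the beta4 tail to keratin, was at 138, 117 and 84.8 TPM in TC and 160, 170 and 199 TPM in TM. The groups did not overlap, and the log2 difference was -0.66 (SE 0.19, adjusted p = 0.148 by limma). COL17A1 and DST had log2 differences of -0.47 and -0.30 with adjusted p of 0.405 and 0.559 by limma.

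The counts of direction below move with the whole table. Of all tested genes, 33.0% had a higher mean in TC, and rescaling moved their median difference from -0.14 to 0.02. Of 7 activators tested, 1 had a higher mean in TC, and 3 did after rescaling. Of 8 inactivators 2 did, and 6 after rescaling. The named activators were TLN2 (-0.43), RAP1A (0.21) and TLN1 (-0.22), and the inactivators SHARPIN (-0.18), RAP1GAP (-0.20) and FLNA (-0.10), all with adjusted p of 0.530 or more by limma. Among 11 membrane partners, 5 were higher and 6 lower, against 10 and 1 after rescaling. CD63, a tetraspanin, was at 1014, 991 and 1109 TPM in TC and 839, 909 and 852 TPM in TM, wholly above TM, with a log2 difference of 0.26 (adjusted p = 0.316 by limma). SDC1 and CD81 had differences of -0.26 and -0.15 on the same scale. Among 13 trafficking genes, 4 were higher and 9 lower, against 7 and 6 after rescaling. GGA3, an adaptor of sorting from Golgi and endosomes, had the smallest adjusted p of all listed genes (0.103 by limma), at 11.1, 10.4 and 9.04 TPM in TC and 21.5, 15.3 and 27.8 TPM in TM. Its log2 difference was -0.98 (SE 0.23), RCC2 stood at -0.45 (adjusted p = 0.233 by limma), and RAB4A at 0.44 (adjusted p = 0.440 by limma).

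**Figure D4:**
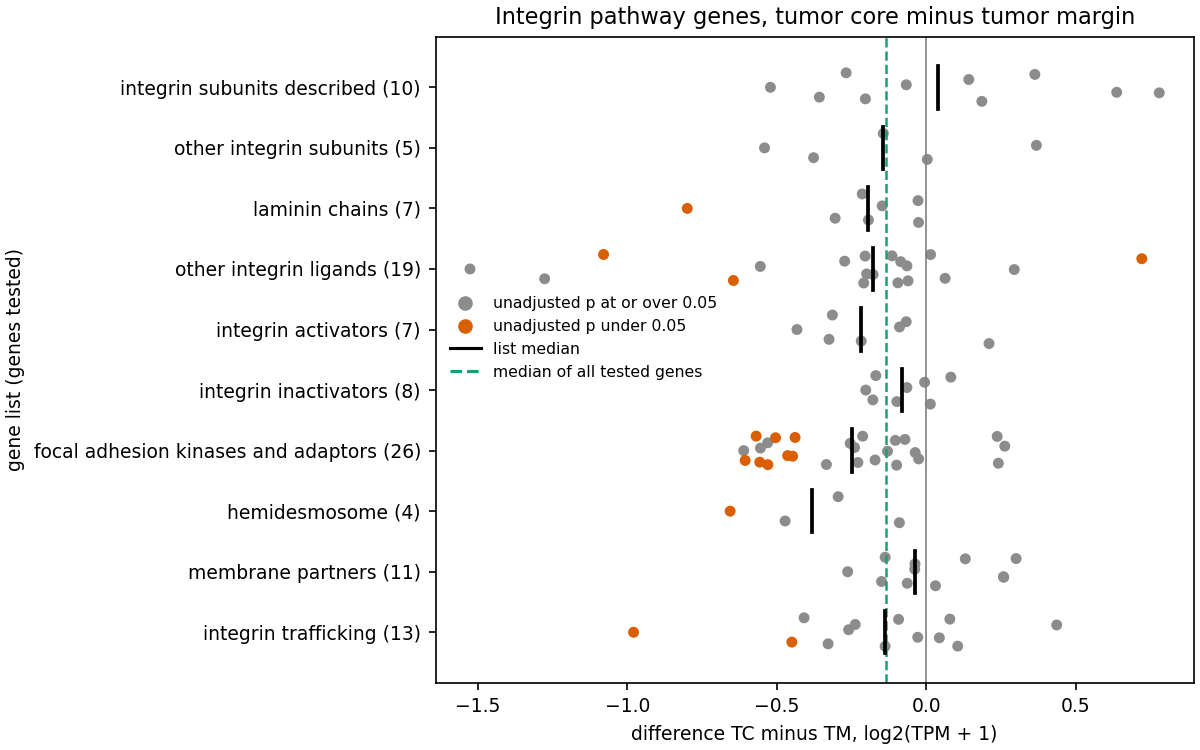
Difference TC minus TM in log2(TPM + 1) of each tested gene in the 10 integrin subunits and 9 pathway lists (genes tested in parentheses), orange for an unadjusted p under 0.05 by limma and grey otherwise, with black bars at list medians and the dashed line at the median of all tested genes. No gene reached an adjusted p under 0.05. Among the 26 focal adhesion genes 23 lie below 0 and 8 of those are orange, against 14.2% of all tested genes. The 8 became 4 after rescaling and 2 after the trend removal, settings for which the share of all tested genes is not given.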

How the data were processed

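Per the labels and the study's methods, RNA of 3 TC and 3 TM samples was made into TruSeq libraries and sequenced in pairs. Reads were trimmed, aligned with HISAT2 in orientation mode, assembled by StringTie, and RSEM gave the abundance of each gene, and the submitters' processing notes name hg38. The annotation release is not given in the sources used here, and no step that parts mouse from human reads is described. The authors deposited TPM, which is scaled to a sum per sample and keeps no sequencing depth. Depth is therefore unknown for all 6, intervals from read counts could not be given and the study's count model could not be run.

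Of 60930 rows, 259 were assembled loci and were left out of the main comparison, and 60671 were annotated genes. There were 0 other columns of sample values. Positions, transcript length and GC content came from GENCODE v29 on GRCh38, which held 96.2% of the annotated genes. Values were taken as log2(TPM + 1). Genes reaching 1 TPM in 3 or more samples were compared by limma 3.58.1 in R 4.3.3 (trended empirical Bayes, two-sided, 3 TC against 3 TM without a covariate), with Benjamini-Hochberg adjustment over 13861 genes and a call at an adjusted p under 0.05. P-values measure the spread between these samples. The script was tested on simulated data. Alternatives were a pseudocount of 0.1, no filter, a mean of at least 5 TPM, quantile and median-of-ratios scaling, TPM without mitochondrially encoded genes, no or robust moderation trend, inclusion of assembled loci, the replicate number as a block and each sample left out; removal of a lowess trend on GC content and length (span 0.3), alone and with the block, was added after seeing the data. Python 3.11.15 was used for the summaries.

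The integrin subunits and all gene lists were chosen with earlier results of these data known. Named were all 10 subunits, other subunits that passed the filter, the 3 genes of each list with the smallest unadjusted p, and the 3 genes most correlated with the subunit of smallest p. Other genes, such as ITGB7, ITGA11 and FN1, were named after their values were seen.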

Additional observations from a re-analysis of the deposited data

How the results depend on the processing

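No integrin subunit was called in any alternative, and the lowest adjusted p was 0.254 (ITGAV with the replicate block, by limma). No pathway gene was called in any of them either. The number of genes called among all tested, 19 in the main comparison, was 7 with a pseudocount of 0.1, 1 with no filter, 4 with quantile normalization, 6 with median-of-ratios rescaling, 12 without the moderation trend, 47 with robust moderation, 3 with the GC and length trend removed, and 1 to 17 with 1 sample left out. Whether the replicate numbers pair the samples was not settled by the values. Deviations from the group means of same-numbered samples correlated at 0.21, -0.12 and -0.16 over 13861 genes, and not every sample correlated best with its own number. With 3 samples per group and library-wide trends in the values, these correlations cannot exclude a shared tumor. With the replicate block 1 gene was called, and 1 with the block and the trend removal together. Integrin subunits at an unadjusted p under 0.05, 0 in the main comparison, numbered 2 with quantile normalization, 2 with median-of-ratios rescaling, 1 with the replicate block, 3 with the trend removed, 4 with block and trend removal together, and 0 to 2 with 1 sample left out. The share of all tested genes at that level is known here for the main comparison only (16.2%), so the counts of the alternatives have no baseline. Leaving out TC replicate 2 turned the called genes from 1 of 19 higher in TC to 11 of 16, and leaving out TM replicate 2 to 6 of 9. The difference of ITGA3, -0.07, was 0.11 after median-of-ratios rescaling and 0.29 after trend removal, with or without the block, and ran from -0.18 to 0.026 with 1 sample left out. After trend removal, with or without the block, ITGA5 was at 0.14 and ITGB3 at 0.017. ITGA2 ran from -0.022 to 0.75 with 1 sample left out. The other 6 subunits kept their sign throughout. ITGAV ranged from 0.35 to 1.03 over 18 alternatives and was under an unadjusted p of 0.05 in 7, and ITGB8 ranged from 0.36 to 1.01 over 17 and was so in 5. ITGB8 has no value with a mean of at least 5 TPM. The causes of these moves were not tested.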
